A study of Mus musculus with 12 samples.

Results

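The 10 genes described here encode receptors, transcription factors and inhibitors of the interleukin-6 (IL-6) branch of JAK-STAT signaling in the liver. They are Il6ra, Il6st, Osmr, Lifr, Stat3, Stat5b, Socs1, Socs2, Socs3 and Cish. Genes are given by their Ensembl identifiers with GENCODE positions on GRCm39. Each was taken as the row of the count table whose Ensembl gene carries that symbol in GENCODE, so that 10 of 55414 rows entered, where 25013 rows had at least 1 read. The rule goes by name and uses no measured value, but the genes were picked with earlier results of these data known. RNAseq was made from the livers of 12 female C57Bl/6J mice aged 8 to 12 weeks, in 4 groups of 3. All mice received a first intraperitoneal injection of 0.9% NaCl or of 300 mg/kg FeSO4, a dose that causes acute iron overload, and 6 h later a second injection of PBS or of 10 mg/kg dexamethasone (DEX), a synthetic glucocorticoid that activates the glucocorticoid receptor. Livers were taken 2 h after the second and 8 h after the first injection, and the groups are written as first/second injection (NaCl/PBS, NaCl/DEX, FeSO4/PBS and FeSO4/DEX). No deleted gene or transgene is named for these mice, and whole liver tissue was used, so that hepatocytes and the other liver cells were measured together.

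Ligands of the IL-6 family bind a receptor chain of their own, which joins the shared signaling chain gp130. For IL-6 this chain is the IL-6 receptor encoded by Il6ra, for oncostatin M the receptor encoded by Osmr, and for leukemia inhibitory factor the receptor encoded by Lifr, and gp130 is encoded by Il6st. Janus kinases bound to gp130 phosphorylate STAT3, which enters the nucleus and induces acute-phase genes and Socs3, whose protein in turn blocks gp130 and the kinases. STAT5B carries the growth hormone signal in hepatocytes and induces Cish and Socs2, which damp that signal. Glucocorticoids are known to strengthen the acute-phase response of hepatocytes to IL-6.

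Between 16335651 and 23827340 reads per library were counted on genes, and 17493 to 18579 genes had at least 1 read. Normalized counts are reads scaled with edgeR's TMM factors to a common library size. LFC is the log2 fold change, and a gene was called higher or lower at an edgeR FDR (Benjamini-Hochberg adjusted p of the quasi-likelihood test over 13857 genes) of 0.05 or less, with no minimum LFC. All 10 genes passed the filter on low counts. The 8 hepatocyte markers were present in every library, with summed normalized counts of 2151482 to 3057136. These sums were 2151482 to 2554000 in NaCl/PBS and 2653045 to 2985203 in FeSO4/PBS mice. After FeSO4 with PBS 2 of the 8 were called higher and 0 lower. The markers of neutrophils and Kupffer cells moved with FeSO4. The summed count of 8 neutrophil markers was 132 to 311 in NaCl/PBS, 81.6 to 117 in NaCl/DEX, 788 to 942 in FeSO4/PBS and 589.8 to 696 in FeSO4/DEX mice, and all 8 Kupffer cell markers were lower after FeSO4 with PBS (summed counts of 8652 to 9910 in NaCl/PBS and 4675 to 5426 in FeSO4/PBS mice). Of the neutrophil markers 7 were tested, and 5 rose after FeSO4 with PBS, where 27.2% of all genes did. With DEX in both groups 6 rose after FeSO4, where 22.4% did, and after DEX in NaCl mice 1 fell, where 7.15% did. In NaCl/DEX mice 1 of the 7 had no reads at all. With so few counts in NaCl mice some may have passed the filter on low counts through the FeSO4 libraries alone, so these numbers are a description. Kupffer cell markers did not pass the test after DEX, and 6 of 8 were lower after FeSO4 with DEX, where 20.9% of all genes were. Of 7 stellate cell markers 2 were higher and 1 lower after FeSO4 with PBS, of 7 endothelial ones 2 and 3, and of the tested lymphocyte (4) and mesothelial (3) ones 0 and 1 each. All these marker counts for FeSO4 with PBS are read against the 27.2% of all genes called higher and 27.3% called lower. No marker of any list was at 0 in all libraries. In whole liver, fewer cells of a type and less RNA per cell cannot be told apart, and the part of these cells in the results below was not tested. Libraries of the same group differed by more than the sampling noise. FeSO4/PBS mouse 1 stood apart from mice 2 and 3 of its group, with a chi-square per gene of 89.5 and 71.4 against them and 23.98 between those, and without it 4, 3, 0, 7 and 2 of the 10 genes were called in the 5 comparisons described here (4, 3, 0, 6 and 2 with it). Throughout, n counts mice.

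**Figure D1:**
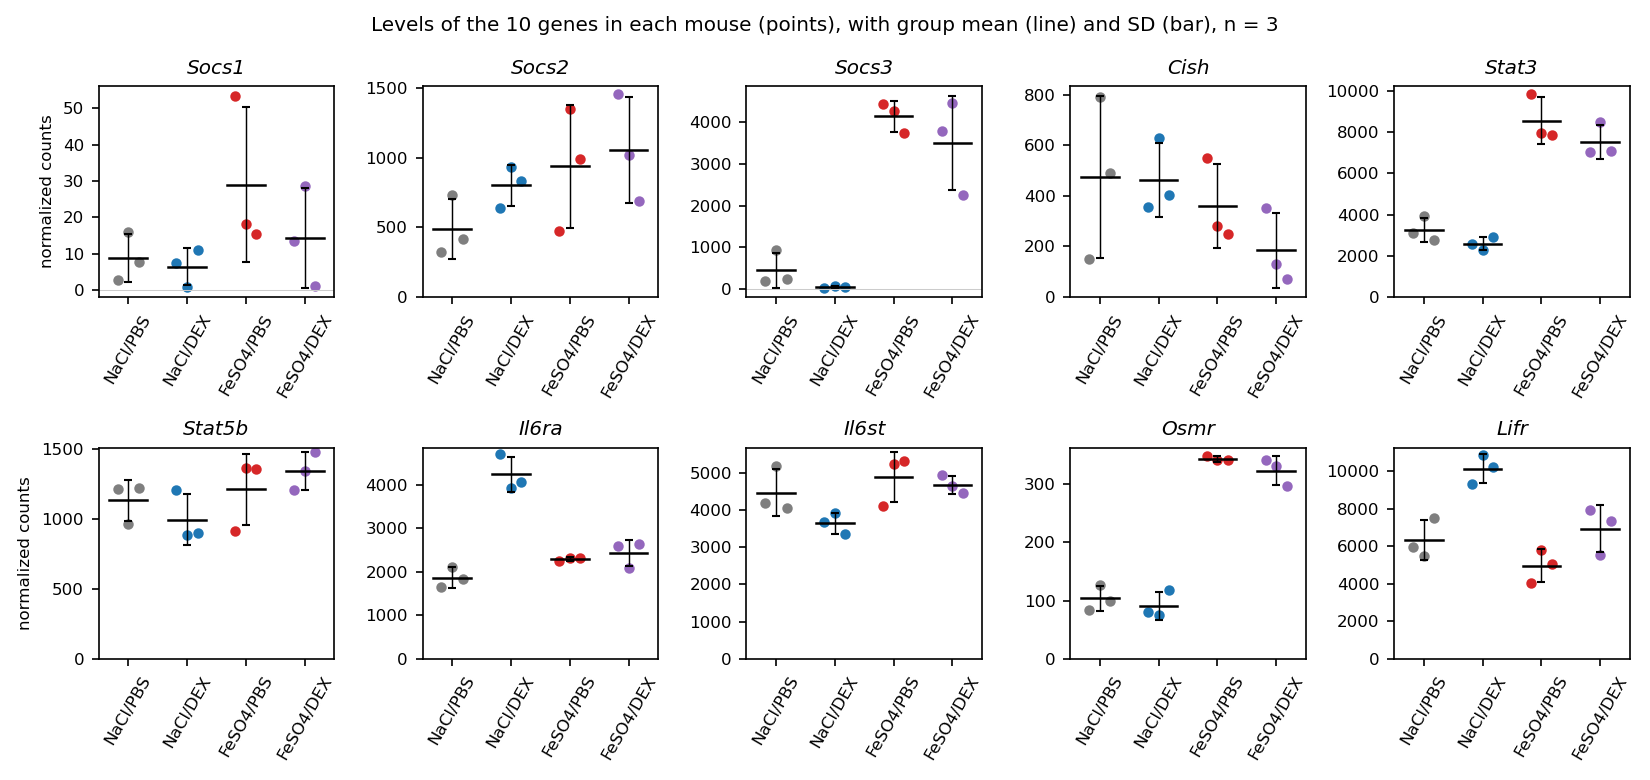
Normalized counts (vertical axes, each starting at or just below 0) of the 10 genes in each of the 12 mice, by group. Points are mice in the order 1, 2, 3, horizontal lines the group means and bars the SD (n = 3). Socs3, Stat3 and Osmr were high in all 6 mice given FeSO4, while Il6ra and Lifr were highest in the 3 NaCl/DEX mice.

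The promoter of Socs3 is shown because Socs3 changed most among the 10 genes in both the FeSO4 and the DEX comparison, and that of Cish because it was the other gene with a match to the STAT motif. RefSeq windows on GRCm38.p6 from 250 bases before to 50 bases from each annotated start were searched for TTCNNNGAA, the palindrome bound by STAT dimers, which reads the same on both strands. The files' counts were made on another build, mm39, and no position is carried between the builds. Windows were at hand for 9 of the 10 genes, and not for Socs2. These were 11 windows, with 2 each for Stat5b and Lifr and 1 for each other gene. Of the 11, the window of Socs3 held 1 match and that of Cish 2, and the other 7 genes had none. Of all 32851 windows 2726 (8.3%) held at least 1 match and 150 (0.457%) at least 2. Capitals mark the matches in the sequences, which are written 5′ to 3′ on the gene's strand. That of Socs3 is the 250 bases before the start, at chr11:117969367-117969616 on the minus strand. That of Cish is 30 bases at chr9:107296654-107296683 on the plus strand, in which the first match begins at the start base and the second 11 bases further on.

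Socs3: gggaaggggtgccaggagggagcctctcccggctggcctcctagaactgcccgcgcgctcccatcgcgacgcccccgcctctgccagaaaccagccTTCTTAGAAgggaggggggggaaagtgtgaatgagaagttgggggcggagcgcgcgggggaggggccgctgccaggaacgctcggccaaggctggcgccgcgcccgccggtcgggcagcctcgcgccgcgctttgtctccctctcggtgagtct
Cish: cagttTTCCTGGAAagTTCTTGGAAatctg

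The match of Socs3 covers bases 154 to 146 before its start. A match of 9 bases describes these letters alone and says nothing about binding in these livers.

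To see how iron overload acts on the pathway, FeSO4/PBS mice were compared with NaCl/PBS mice. Of the 10 genes 4 were upregulated, namely Socs3, Osmr, Stat3 and Socs2, and 0 were downregulated. Socs3 rose 9.11-fold, Osmr 3.33-fold, Stat3 2.62-fold and Socs2 1.91-fold. Of all genes tested, 27.2% were called higher and 27.3% lower in this comparison, and 4 of 10 is read against that share. The median LFC of the 10 genes was 0.62, and -0.02 over all genes. With libraries scaled by their size alone the median of all genes was -0.34, and 28.2% of the called genes were higher in place of 49.9%.

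Among the receptors, Osmr (ENSMUSG00000022146, chromosome 15 from 6843053 to 6904450) encodes the oncostatin M receptor chain. Its normalized counts were 83.4, 127 and 99.9 with NaCl/PBS and 349, 341 and 341 with FeSO4/PBS. The FeSO4/PBS mice were nearly equal to each other, and all of them lay above all NaCl/PBS mice. Its LFC was 1.74 (edgeR FDR 3.7e-06, SE 0.18), from 103 ± 22.1 to 343 ± 4.68 (SD, n = 3).

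Il6ra (ENSMUSG00000027947, chromosome 3 from 89771366 to 89820719) encodes the receptor chain that binds IL-6. Its normalized counts were 1639.9, 2115 and 1822 in NaCl/PBS and 2243, 2323 and 2302 in FeSO4/PBS mice. No FeSO4/PBS mouse was as low as a NaCl/PBS mouse, yet the LFC of 0.30 (edgeR FDR 0.054, SE 0.12) missed the threshold. It passed under DESeq2 (adjusted p = 0.03), with DESeq2's size factors (edgeR FDR 0.041), without NaCl/PBS mouse 2 (edgeR FDR 0.023) and without FeSO4/DEX mouse 2 (edgeR FDR 0.041), and was -0.02 (edgeR FDR 0.92) with library size alone. An overlapping gene on the opposite strand, Gm42809, had 958 reads over all libraries, and which strand the authors counted is not given in the sources used here.

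Il6st (ENSMUSG00000021756, chromosome 13 from 112600604 to 112646620), the gene of gp130, had 4176, 5183 and 4042 normalized counts in NaCl/PBS and 4110.5, 5248 and 5316 in FeSO4/PBS mice, and the groups overlapped. The LFC was 0.13 (edgeR FDR 0.41, SE 0.13) with a 95% interval of -0.15 to 0.41. Lifr (ENSMUSG00000054263, chromosome 15 from 7120095 to 7226970) encodes the receptor of leukemia inhibitory factor. It had 5933, 5488 and 7521 in NaCl/PBS and 4021, 5769 and 5049 in FeSO4/PBS mice, again with overlap. The LFC of Lifr was -0.35 (edgeR FDR 0.09, SE 0.17). It was called with library size alone (LFC -0.67, edgeR FDR 0.0062), with no filter on low counts (edgeR FDR 0.045) and without FeSO4/PBS mouse 2 (LFC -0.48, edgeR FDR 0.043).

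Of the transcription factors, Stat3 (ENSMUSG00000004040, chromosome 11 from 100775924 to 100830450) mediates the IL-6 signal. The NaCl/PBS mice had 3093, 3917 and 2775 normalized counts and the FeSO4/PBS mice 9849.8, 7944 and 7875. The groups were far apart, with the lowest FeSO4/PBS mouse above the highest NaCl/PBS mouse. Its LFC was 1.39 (edgeR FDR 5e-06, SE 0.15) and ran from 1.28 to 1.55 with 1 mouse left out. Stat5a, which overlaps Stat3 on the opposite strand, had 2183 reads in all libraries together.

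Stat5b (ENSMUSG00000020919, chromosome 11 from 100671556 to 100741589), the growth hormone-responsive factor, had 1209.8, 963 and 1222 in NaCl/PBS and 914, 1361 and 1353 in FeSO4/PBS mice. These groups overlapped, and the LFC was 0.09 (edgeR FDR 0.66, SE 0.17) with an interval of -0.27 to 0.46. With library size alone the LFCs of Stat5b and Il6st turned to -0.22 and -0.18, and neither was called.

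Of the inhibitors, Socs3 (ENSMUSG00000053113, chromosome 11 from 117856905 to 117860898) encodes the suppressor that binds gp130. It had 193, 942 and 239 normalized counts in NaCl/PBS mice 1, 2 and 3 and 4442, 4277 and 3732 in FeSO4/PBS mice. Mouse 2 of the NaCl/PBS group was 4.87 times as high as mouse 1, while the FeSO4/PBS mice differed by 1.19 times at most, and the groups did not overlap. The LFC was 3.19 (edgeR FDR 7.8e-05, SE 0.48) and was 4.27 without NaCl/PBS mouse 2.

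The same NaCl/PBS mouse was the highest of its group for Socs1, Socs2 and Cish too, and mouse 1 the lowest. Socs2 (ENSMUSG00000020027, chromosome 10 from 95219523 to 95253929), an inhibitor of growth hormone signaling, had 322, 731 and 419 normalized counts in NaCl/PBS and 475, 1348 and 989.6 in FeSO4/PBS mice. The groups overlapped, as FeSO4/PBS mouse 1 was below NaCl/PBS mouse 2. Its LFC was 0.94 (edgeR FDR 0.042, SE 0.36), and the call was lost with library size alone (LFC 0.63, edgeR FDR 0.16), under DESeq2 (adjusted p = 0.058) and when the libraries of both groups were fitted alone (edgeR FDR 0.067). Leaving out 1 mouse ended it for FeSO4/PBS mouse 2 (LFC 0.58, edgeR FDR 0.21) or 3 (edgeR FDR 0.087), NaCl/PBS mouse 1 (0.16) or 3 (0.12), FeSO4/DEX mouse 2 (0.053) and NaCl/DEX mouse 3 (0.052).

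Socs1 (ENSMUSG00000038037, chromosome 16 from 10600104 to 10603875), an inhibitor of Janus kinases, was the least abundant of the 10 genes, with 4, 17 and 9 reads in NaCl/PBS and 53, 18 and 12 in FeSO4/PBS mice. In normalized counts these were 2.88, 15.9 and 7.62 and 53.4, 18.3 and 15.3. The groups overlapped, since FeSO4/PBS mouse 3 was below NaCl/PBS mouse 2, and the LFC of 1.77 (edgeR FDR 0.082, SE 0.82) was not called. It was called without NaCl/PBS mouse 2 (LFC 2.49, edgeR FDR 0.049), with no filter on low counts (edgeR FDR 0.0039) and when the libraries of both groups were fitted alone (edgeR FDR 0.049). Cish (ENSMUSG00000032578, chromosome 9 from 107173225 to 107179983), an inhibitor that STAT5 induces, had 148, 789 and 488 in NaCl/PBS and 549, 278 and 246 in FeSO4/PBS mice. The values ran through each other, with an LFC of -0.40 (edgeR FDR 0.56, SE 0.55) that spanned -0.85 to 0.18 over the fits lacking 1 mouse (0.18 without NaCl/PBS mouse 2), and it was called with no filter on low counts (edgeR FDR 0.037).

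**Figure D2:**
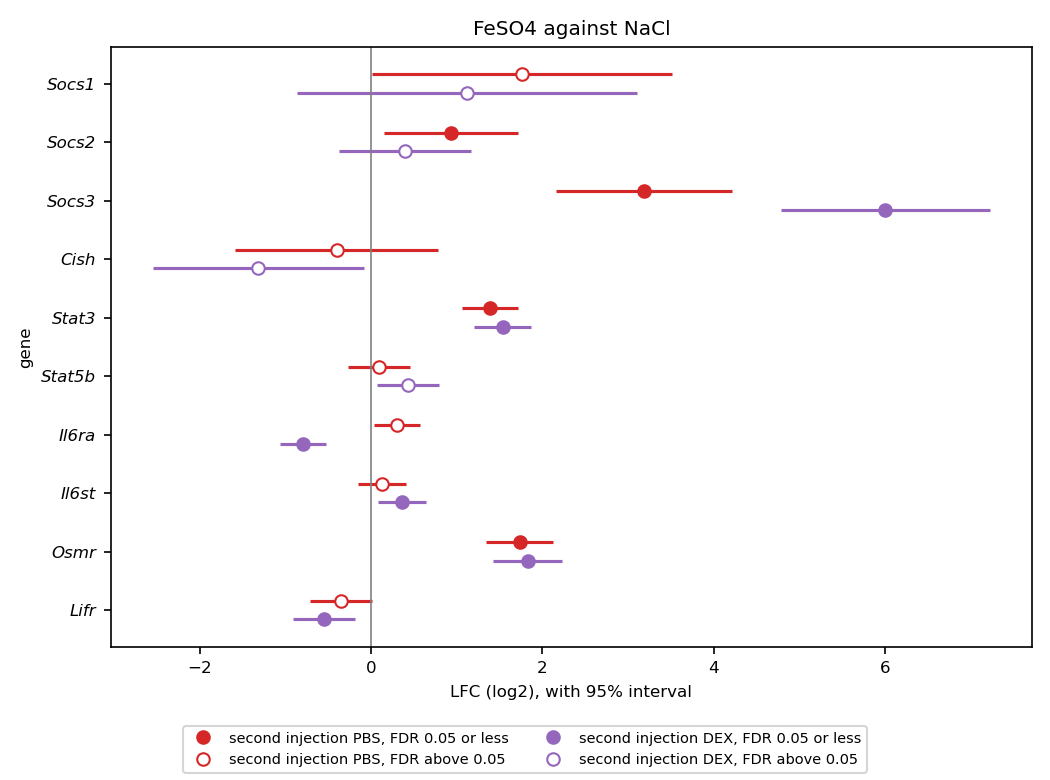
LFC of FeSO4 against NaCl (horizontal axis, log2) for each of the 10 genes, with PBS (red) or DEX (purple) as the second injection; lines are 95% intervals and filled points have an edgeR FDR of 0.05 or less. Socs3 stood at 3.19 with PBS and 6.01 with DEX, and Il6ra at 0.30 and -0.80.

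The response to DEX was first taken in mice without iron, as NaCl/DEX against NaCl/PBS. Socs3 was 8.34-fold lower in the NaCl/DEX mice, and both Il6ra (2.28-fold) and Lifr (1.60-fold) were higher. Of the 10 genes 2 were thus called higher, where 6.50% of all genes were, and 1 lower, where 7.15% were. The other 7 genes were not called. The medians were -0.18 for the 10 genes and -0.02 for all genes, and the share of higher genes among all calls was 47.6%, or 25.8% with library size alone. Both this and the FeSO4 comparison above rest on these 3 NaCl/PBS mice as controls.

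Il6ra had 4697, 3932 and 4066 normalized counts in the NaCl/DEX mice, against 1639.9, 2115 and 1822 in NaCl/PBS mice. All 3 NaCl/DEX mice were higher than any other mouse of the experiment for this gene. The LFC was 1.19 (edgeR FDR 2.9e-05, SE 0.13), and it ran from 1.11 to 1.30 with 1 mouse left out. Lifr had 9316, 10874 and 10199 in the NaCl/DEX mice, again above every other mouse. Its LFC was 0.68 (edgeR FDR 0.015, SE 0.17). That call did not hold with library size alone (LFC 0.53, edgeR FDR 0.06) or with NaCl/PBS mouse 1 (0.061) or 2 (LFC 0.60, edgeR FDR 0.058) or NaCl/DEX mouse 2 (0.053) left out.

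Socs3 had 39.7, 73.3 and 49.3 normalized counts in the NaCl/DEX mice. Each of them was below the lowest NaCl/PBS mouse at 193. The LFC was -3.06 (edgeR FDR 0.0014, SE 0.53), and without NaCl/PBS mouse 2 it was -1.97 (edgeR FDR 5.1e-04). Stat3 (2558, 2289 and 2936) and Il6st (3669, 3909 and 3342) had LFCs of -0.33 (edgeR FDR 0.18, SE 0.15) and -0.30 (edgeR FDR 0.16, SE 0.13). Neither was called, although the NaCl/DEX mice lay below the NaCl/PBS mice for Il6st, and both were called with library size alone (edgeR FDR 0.026 and 0.042).

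Osmr (80.5, 74.3 and 118) and Stat5b (1203, 883 and 898) overlapped with the NaCl/PBS mice, at LFCs of -0.18 with an interval of -0.59 to 0.23 and -0.19 with an interval of -0.55 to 0.18. Socs2 (641, 932 and 834) had an LFC of 0.71 (edgeR FDR 0.23, SE 0.36), and with no filter on low counts it was called (edgeR FDR 1.8e-05) at nearly the same LFC of 0.72. Cish (355, 630.0 and 404) had an LFC of -0.03 and Socs1 (7, 1 and 11 reads) one of -0.40. Their intervals were wide, from -1.20 to 1.14 and from -2.43 to 1.62.

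In mice given FeSO4, none of the 10 genes was called after DEX in either direction, where 0.00% of all genes were called higher and 0.00% lower. At an unadjusted p under 0.05 there were 900 genes in all and 1 of the 10, and DESeq2 called 10 genes, none of them among the 10. The gene with an unadjusted p under 0.05 was Lifr, with 7913, 5527 and 7346 normalized counts in FeSO4/DEX and 4021, 5769 and 5049 in FeSO4/PBS mice. FeSO4/DEX mouse 2 lay among the FeSO4/PBS mice, and the LFC was 0.49 (edgeR FDR 0.71, SE 0.17) with an interval of 0.13 to 0.85. The change in Lifr after DEX was 0.68 in NaCl mice, and the difference between the 2 responses was -0.20 (edgeR FDR 0.7, SE 0.24), with an interval of -0.70 to 0.31.

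The difference between the DEX response in FeSO4 mice and that in NaCl mice was tested for every gene as an interaction. It was called for 2 of the 10 genes, for Socs3 as higher, where 2.99% of all genes were, and for Il6ra as lower, where 3.20% were. With library size alone 63.7% of all called differences were higher, in place of 48.3%. For Il6ra the LFC of DEX was 1.19 in NaCl mice and 0.09 in FeSO4 mice, whose FeSO4/DEX values of 2587, 2085 and 2628 lay on both sides of the FeSO4/PBS values. The interval after FeSO4, -0.18 to 0.36, did not reach the LFC in NaCl mice. The interaction was -1.10 (edgeR FDR 0.0022, SE 0.18) and ran from -1.22 to -1.02 with 1 mouse left out.

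For Socs3 the LFC of DEX was -3.06 in NaCl mice and -0.24 in FeSO4 mice. The FeSO4/DEX mice had 3798, 4468 and 2266 normalized counts, and mouse 3 alone was below all FeSO4/PBS mice. The interaction was 2.82 (edgeR FDR 0.025, SE 0.68). It was 1.72 (edgeR FDR 0.013) without NaCl/PBS mouse 2, and the call was lost without FeSO4/DEX mouse 1 (edgeR FDR 0.051) or 2 (0.058), FeSO4/PBS mouse 3 (0.056) and NaCl/DEX mouse 1 (0.07) or 3 (0.069), with LFCs of 2.58 to 2.75 in these 5 fits.

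For the 8 other genes, Lifr among them, the interaction was not called, and its interval shows how far it was measured. It was -0.31 to 0.60 for Stat3, -0.16 to 0.63 for Il6st, -0.46 to 0.65 for Osmr and -0.18 to 0.85 for Stat5b. For the more variable inhibitors it ran from -1.63 to 0.55 for Socs2, from -2.62 to 0.79 for Cish and from -3.34 to 2.05 for Socs1. Within the FeSO4 mice, Stat3 (7015, 8475 and 7104 in FeSO4/DEX), Osmr (342, 332 and 296) and Il6st (4938, 4641 and 4458) overlapped with the FeSO4/PBS mice. Their LFCs after DEX were -0.18, -0.09 and -0.06. Stat5b (1203, 1344 and 1474), Socs2 (1456, 1017 and 693) and Socs1 (13.5, 28.5 and 1.19) overlapped as well, at LFCs of 0.15, 0.17 and -1.05. Cish had its lowest values of the experiment in FeSO4/DEX mice 2 and 3, at 349.9, 130.5 and 69.0 in mice 1, 2 and 3. Its LFC against FeSO4/PBS was -0.95 (edgeR FDR 0.8, SE 0.58), and with no filter on low counts it was called here (edgeR FDR 7.7e-06) and in the interaction (edgeR FDR 0.0016). The LFC here was then -0.94, so that the call came from another estimate of the spread and not from a larger change.

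**Figure D3:**
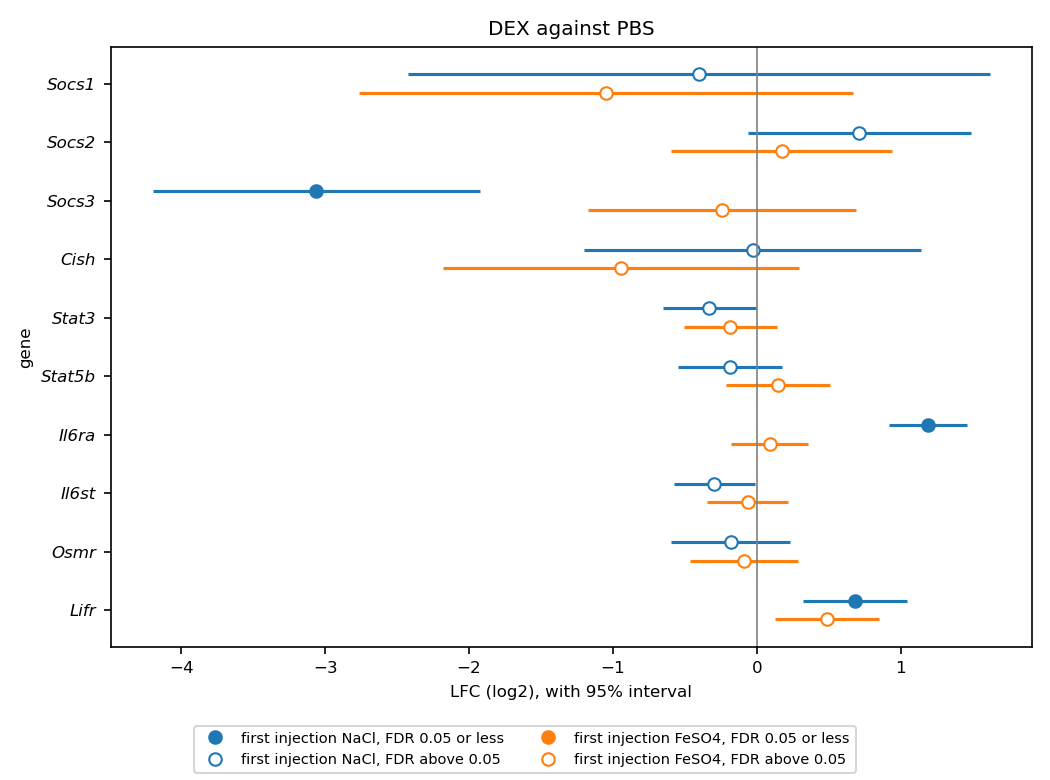
LFC of DEX against PBS (horizontal axis, log2) for the 10 genes in mice first given NaCl (blue) or FeSO4 (orange); lines are 95% intervals and filled points have an edgeR FDR of 0.05 or less. Socs3, Il6ra and Lifr were called after NaCl, and none of the 10 genes after FeSO4.

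With DEX as the second injection in both groups, FeSO4 raised Socs3, Osmr, Stat3 and Il6st and lowered Il6ra and Lifr. Socs3 was 64.3-fold, Osmr 3.56-fold, Stat3 2.90-fold and Il6st 1.29-fold higher in FeSO4/DEX than in NaCl/DEX mice, and Il6ra was 1.74-fold and Lifr 1.46-fold lower. That made 4 of 10 called higher and 2 lower, against 22.4% and 20.9% of all genes. The median LFC was 0.41 for the 10 genes and 0.01 for all genes, and among all calls 51.7% were higher, or 34.2% with library size alone. This comparison shares its mice with the DEX comparisons above. The LFC of Socs3 was 6.01 (edgeR FDR 2.2e-06, SE 0.57), or 5.77 to 6.29 with 1 mouse left out, and that of Il6ra was -0.80 (edgeR FDR 0.00016, SE 0.12).

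Il6st, at 4938, 4641 and 4458 in FeSO4/DEX and 3669, 3909 and 3342 in NaCl/DEX mice, had an LFC of 0.36 (edgeR FDR 0.037, SE 0.13). All FeSO4/DEX mice were above all NaCl/DEX mice, but the call was lost with library size alone (LFC 0.17, edgeR FDR 0.36), with no filter on low counts (edgeR FDR 0.064) and in 7 of the fits with 1 mouse left out. Those were without FeSO4/DEX mouse 1 (edgeR FDR 0.11), 2 (0.11) or 3 (0.078), NaCl/DEX mouse 1 (0.081) or 3 (0.13) and NaCl/PBS mouse 1 (0.057) or 3 (0.052). Lifr had an LFC of -0.55 (edgeR FDR 0.017, SE 0.17). Its call was lost without FeSO4/DEX mouse 2 (LFC -0.44, edgeR FDR 0.064) and without NaCl/DEX mouse 2 (LFC -0.50, edgeR FDR 0.055).

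Stat5b and Cish came near the threshold. Stat5b had 1203, 1344 and 1474 in FeSO4/DEX and 1203, 883 and 898 in NaCl/DEX mice, where the lowest of the first group lay just above the highest of the second. Its LFC was 0.43 (edgeR FDR 0.053, SE 0.17), and it was called without NaCl/DEX mouse 1 (LFC 0.59, edgeR FDR 0.02), without FeSO4/PBS mouse 1 (edgeR FDR 0.023), with no filter on low counts (edgeR FDR 0.019) and with the libraries of both groups alone (edgeR FDR 0.026). Socs2, whose groups overlapped, had an LFC of 0.40 (edgeR FDR 0.4, SE 0.36) and was called with no filter on low counts (edgeR FDR 0.036), and Socs1 had an LFC of 1.12 (edgeR FDR 0.35, SE 0.92). Cish had an LFC of -1.32 (edgeR FDR 0.079, SE 0.57), with every FeSO4/DEX mouse below every NaCl/DEX mouse. Without FeSO4/DEX mouse 1 it was -2.23 (edgeR FDR 0.012), and it was also called with library size alone (LFC -1.50, edgeR FDR 0.049), with the libraries of both groups alone (edgeR FDR 0.033), with no filter on low counts (edgeR FDR 2e-14) and without NaCl/PBS mouse 1 (edgeR FDR 0.037).

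In order of group means, Socs3 went from NaCl/DEX (54.1 ± 17.3 normalized counts, SD, n = 3) over NaCl/PBS (458 ± 419) to FeSO4/DEX (3511 ± 1129) and FeSO4/PBS (4150.1 ± 372), and only the last pair of neighbours overlapped. Stat3 had the same order, from 2594 ± 325 to 3261 ± 589.6, 7532 ± 819 and 8556 ± 1121, and here both the NaCl groups and the FeSO4 groups overlapped. Osmr also had this order, from 90.9 ± 23.5 to 103 ± 22.1, 323 ± 24.2 and 343 ± 4.68, with overlap within the same pairs. Il6ra went from NaCl/PBS (1859 ± 239.8) over FeSO4/PBS (2289 ± 41.8) and FeSO4/DEX (2433 ± 302), which overlapped, to NaCl/DEX (4232 ± 409). Lifr went from FeSO4/PBS (4946 ± 879) over NaCl/PBS (6314 ± 1069) and FeSO4/DEX (6929 ± 1246), each overlapping the next, to NaCl/DEX (10129.7 ± 781), which stood apart. For Socs1, Socs2, Cish and Stat5b no neighbours in the order differed beyond the spread of their mice, apart from Stat5b as given above, whose FeSO4/DEX and NaCl/DEX means are not neighbours.

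Between genes, levels were compared per kilobase of the GENCODE canonical transcript. In NaCl/PBS mice Stat3 (714 normalized counts per kilobase), Lifr (635) and Il6st (515) were the most abundant and Osmr (18.8) and Socs1 the least. Il6ra (215), Stat5b (222), Socs2 (193), Socs3 (172) and Cish (130.3) lay in between. In FeSO4/PBS mice Socs3 had 1558 per kilobase and Stat3 1874, but per kilobase of all annotated exons they had 1166 and 847, so that their order depends on the transcript chosen. Per kilobase of all annotated exons the NaCl/PBS level of Socs2 was 32.2 and not 193, as its annotated exons add up to 15258 bases and its canonical transcript to 2540, so that its place among the genes is not settled either. For Socs3 in NaCl/PBS mice these levels were 129 and 172.

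The ligands were measured as a part of the pathway around the 10 genes, and their reads were few. Il6 had 2, 5 and 2 reads in NaCl/PBS, 0, 0 and 0 in NaCl/DEX, 7, 15 and 5 in FeSO4/PBS and 5, 6 and 3 in FeSO4/DEX mice, and was too low to be tested. Osm, the gene of oncostatin M, had 0, 0 and 0 in NaCl/PBS and 0, 0 and 0 in NaCl/DEX mice, against 13, 13 and 5 and 13, 4 and 6 in FeSO4/PBS and FeSO4/DEX mice. Its FeSO4 mean was 4.36 times the floor with PBS and 2.77 times with DEX, taking 3 reads per NaCl library as the floor for counting error. The counting error of the FeSO4 reads themselves is not covered. Osm passed the filter on low counts through the FeSO4 libraries alone, so that it is described by its reads and no test of it is given.

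Lif, the gene of leukemia inhibitory factor, had 0, 2 and 0 reads in NaCl/PBS and 0, 0 and 0 in NaCl/DEX mice, and 11, 21 and 25 and 16, 18 and 14 after FeSO4. With DEX its FeSO4 mean was 6.24 times the floor. Lif too passed the filter through the FeSO4 libraries alone. Clcf1, which encodes a cytokine that signals through the ciliary neurotrophic factor receptor, had enough reads for a fold change, with 43, 18 and 30 in NaCl/PBS and 186, 199 and 197 in FeSO4/PBS mice. Every FeSO4/PBS mouse was above every NaCl/PBS mouse, and the LFC was 3.11 (edgeR FDR 3.4e-07, SE 0.25).

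Ctf1, the cardiotrophin-1 gene, had 94, 62 and 58 reads in NaCl/PBS and 29, 33 and 29 in FeSO4/PBS mice and fell by 0.81 on the log2 scale (SE 0.25, edgeR FDR 0.014), which was not called with NaCl/PBS mouse 1 left out (edgeR FDR 0.064). Il11, Cntf and Il27 were too low to be tested, with at most 7, 6 and 5 reads in a library.

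**Figure D4:**
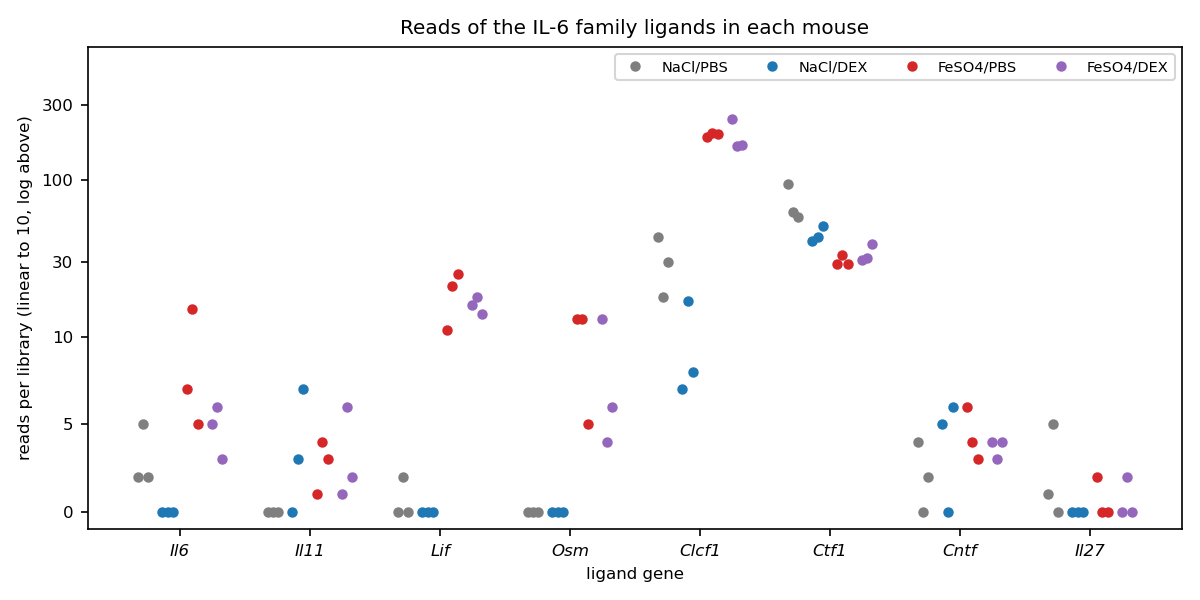
Reads of the 8 IL-6 family ligand genes in each of the 12 mice (vertical axis, reads not corrected for library size, linear to 10 and logarithmic above), by group. Lif and Osm had at most 2 reads in any mouse given NaCl and 4 to 25 in every mouse given FeSO4, and Clcf1 had 165 to 245 after FeSO4.

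With the receptors outside the 10 genes, the list of ligands and other receptors had 13 genes, of which 8 passed the filter. Leaving aside Osm and Lif, which passed it through the FeSO4 libraries alone, 2 of 6 rose and 2 fell after FeSO4, against 27.2% and 27.3% of all genes. Besides Clcf1 it was Lepr that rose, the leptin receptor gene, with 161, 309.5 and 225 normalized counts in NaCl/PBS and 1686, 2842 and 4298 in FeSO4/PBS mice. Its LFC was 3.67 (edgeR FDR 1.9e-06, SE 0.36). Il27ra, a receptor gene of IL-27, fell from 41.9 ± 11.9 to 21.7 ± 5.58 (SD, n = 3) at an LFC of -0.96 (edgeR FDR 0.027, SE 0.34) whose call was lost without NaCl/PBS mouse 1 or FeSO4/PBS mouse 2 (edgeR FDR 0.14 and 0.11), so that 0 and 1 genes of the list fell in these fits. The median LFC of the 8 genes, Osm and Lif included, was 1.66, or 1.17 with Osm set against the floor, and -0.02 over all genes. This median depends on which genes pass the filter. Over the 4 genes with at least 10 counts in every library, without Osm and Lif, it was -0.09. Over the 7 genes tested with the libraries of both groups alone it was 0.21. The value of 1.66 is given as a description and shows no shift of the list. After DEX in NaCl mice Lepr was called higher at an LFC of 1.28 (edgeR FDR 0.021, SE 0.34) and Clcf1 lower at -1.20 (edgeR FDR 0.023, SE 0.32). The call of Lepr did not hold without NaCl/DEX mouse 1 (edgeR FDR 0.051) or 2 (0.06) or NaCl/PBS mouse 1 (0.094) or 3 (0.072). That of Clcf1 did not hold without NaCl/DEX mouse 1 (edgeR FDR 0.095) or 3 (0.1), NaCl/PBS mouse 1 (0.12) or 3 (0.07), or with the libraries of both groups alone (0.076). With DEX in both groups, and again leaving aside Osm and Lif, Clcf1 and Lepr were called higher after FeSO4 and Cntfr lower. Of all genes 22.4% were called higher and 20.9% lower there. Cntfr lost its call without FeSO4/DEX mouse 3, NaCl/DEX mouse 1 or NaCl/DEX mouse 2.

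Of 9 genes of Janus kinases and other STATs 8 were tested. After FeSO4, 1 was called higher (2 without FeSO4/PBS mouse 1 or 2 or NaCl/PBS mouse 2) and 3 lower, against 27.2% and 27.3% of all genes, with a median LFC of -0.19. Under DESeq2, with DESeq2's size factors and with the replicate block 2 were higher. With library size alone 4 were lower and the median was -0.51. With no filter on low counts 3 of 9 were higher. Jak1, a kinase that gp130 uses, had 2499, 2796 and 2624 normalized counts in NaCl/PBS and 4414, 4089 and 4058 in FeSO4/PBS mice, and its LFC was 0.67 (edgeR FDR 0.00017, SE 0.11). The lower genes included Tyk2, another of these kinases, and Stat6, the IL-4-responsive factor. Tyk2 changed most, from 665, 646 and 589 to 98.8, 183 and 229.6, an LFC of -1.90 (edgeR FDR 7e-06, SE 0.22), while Stat6 had an LFC of -0.74 (edgeR FDR 0.00061, SE 0.14). Stat3 and Jak1 thus rose in the same livers in which Stat6 and Tyk2 fell. After DEX in NaCl mice 0 of these 8 genes were higher and 2 lower, against 6.50% and 7.15% of all genes. There were 4 lower with library size alone and without FeSO4/PBS mouse 1 or 2. There were 3 under DESeq2, with at least 10 counts in every library and without FeSO4/DEX mouse 3 or NaCl/DEX mouse 1. With the libraries of both groups alone 6 of 8 were lower, and with no filter on low counts 5 of 9.

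All 12 other negative regulators of JAK-STAT signaling were tested, with 6 called higher and 5 lower after FeSO4, where 27.2% and 27.3% of all genes were, and a median LFC of 0.13. With library size alone 4 were higher and 6 lower, and the median was -0.19. With 1 mouse left out 5 were higher and 4 lower, except without FeSO4/PBS mouse 1 (6 and 5). Ptpn2, a phosphatase of Janus kinases and STATs, rose most, from 222, 261 and 184 to 1208, 1617 and 1085 normalized counts with an LFC of 2.55 (edgeR FDR 2.1e-07, SE 0.19). Socs7 (1.24, edgeR FDR 4.6e-05) and Socs6 (0.93, edgeR FDR 0.0003) rose less. Pias3, which encodes an inhibitor of STAT3, fell from 152, 131 and 170.1 to 30.2, 25.4 and 42.1, an LFC of -2.22 (edgeR FDR 5.7e-05, SE 0.32). The other large falls were in Ptpn6, a phosphatase gene of blood cells, at -1.16 (edgeR FDR 6.6e-06, SE 0.13), and in Socs5 at -1.13 (edgeR FDR 0.0021, SE 0.26). After DEX in NaCl mice 0 were higher and 2, Pias3 and Ptpn6, lower, where 6.50% and 7.15% of all genes were. Ptpn6 lost its call whichever of the 6 NaCl mice was left out (edgeR FDR 0.052 to 0.086), and Pias3 without NaCl/DEX mouse 1 or 3 or NaCl/PBS mouse 1 or 3 (edgeR FDR 0.066 to 0.1), so that in these 4 fits neither was called. Without FeSO4/PBS mouse 1 there was 1 gene called higher. With DEX in both groups 5 were higher and 5 lower after FeSO4, against 22.4% and 20.9% of all genes. There were 3 higher without FeSO4/DEX mouse 1 or NaCl/DEX mouse 2, and 2 higher with library size alone.

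The 25 STAT3-responsive liver genes, mostly of the acute phase, were all tested, and 18 rose and 1 fell after FeSO4, with a median LFC of 1.15 against -0.02 over all genes, of which 27.2% were called higher and 27.3% lower. Without FeSO4/PBS mouse 1 there were 14 that rose and 2 that fell, with a median of 0.84, and without NaCl/PBS mouse 1 or 3 there were 14 and 1. FeSO4/PBS mouse 1 was far above the other mice of its group for several of these genes, for example, as chosen after the values were seen, for Steap4 (41344, 11221 and 10474 normalized counts in FeSO4/PBS mice 1, 2 and 3) and Hp (216968, 80010.3 and 93811). Lcn2, which encodes an iron-siderophore binding protein, had 1123, 3126 and 858 normalized counts in NaCl/PBS and 44701, 13900.1 and 16689 after FeSO4, which gave an LFC of 3.88 (edgeR FDR 3.3e-05, SE 0.53). That LFC was 3.17 without FeSO4/PBS mouse 1 and 4.66 without NaCl/PBS mouse 2. Cebpd, a transcription factor of the acute phase, had 56.1, 199 and 94.8 and 1269, 1435 and 1564, an LFC of 3.63 (edgeR FDR 6.7e-07, SE 0.31). The FeSO4/PBS mice were all above the NaCl/PBS mice for both genes.

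Saa2, a serum amyloid gene whose reads can be shared with Saa1, rested on 1 mouse. It had 6153, 11032 and 3718 in NaCl/PBS and 106469.8, 14788 and 11839 in FeSO4/PBS mice, and its LFC of 2.67 (edgeR FDR 0.03, SE 0.96) became 0.94 (edgeR FDR 0.35) without FeSO4/PBS mouse 1. Leaving out NaCl/PBS mouse 1 (edgeR FDR 0.083) or 3 (0.1) ended the call as well. Crp fell by 0.66 on the log2 scale (edgeR FDR 0.018, and 0.056 with the libraries of both groups alone). After DEX in NaCl mice 4 of the 25 genes were higher and 3 lower, against 6.50% and 7.15% of all genes. There were 2 higher without NaCl/PBS mouse 1 or 3, and 2 lower without NaCl/DEX mouse 1 or 2 or NaCl/PBS mouse 2. After DEX in FeSO4 mice 0 and 0 were called, as over all genes (0.00% and 0.00%), or 0 and 6 with no filter on low counts. With DEX in both groups 10 rose and 2 fell after FeSO4, against 22.4% and 20.9% of all genes. These were 9 and 3 with library size alone, 14 and 2 of 24 with the libraries of both groups alone and 17 and 2 with no filter.

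Of the 7 genes of the growth hormone and STAT5 axis, 3 rose and 2 fell after FeSO4, with a median LFC of -0.24. These counts are read against the 27.2% and 27.3% of all genes called higher and lower, and with 1 mouse left out 1 to 3 rose and 0 to 3 fell, with 1 that rose without FeSO4/PBS mouse 2 or NaCl/PBS mouse 3 and 0 that fell without FeSO4/PBS mouse 3. Igfbp3, which encodes a carrier of insulin-like growth factors, rose from 202, 205 and 249 to 472, 483 and 436 normalized counts, with an LFC of 1.09 (edgeR FDR 1.1e-05, SE 0.13). Bcl6, a repressor that opposes STAT5, and Igf1, the main STAT5 target among growth factors, had LFCs of 0.98 (edgeR FDR 0.036, SE 0.37) and 0.41 (edgeR FDR 0.03, SE 0.15). Both calls were lost with library size alone (edgeR FDR 0.14 and 0.59) and without FeSO4/PBS mouse 2 (edgeR FDR 0.14 and 0.15) or NaCl/PBS mouse 3 (edgeR FDR 0.13 and 0.1). Bcl6 also lost its call without NaCl/PBS mouse 2 (edgeR FDR 0.13) or FeSO4/PBS mouse 3 (0.064) and with the libraries of both groups alone (0.086), and Igf1 without NaCl/PBS mouse 1 (0.1). The falls were in Onecut1, a liver transcription factor gene, at -1.13 (edgeR FDR 0.026, SE 0.40), and in Igfals, which encodes the third protein of the circulating Igf1 complex, at -0.66 (edgeR FDR 0.01, SE 0.19). The call of Onecut1 was lost without NaCl/PBS mouse 2 (LFC -0.57, edgeR FDR 0.2) or FeSO4/PBS mouse 1 (0.098) or 3 (0.071) and with the libraries of both groups alone (0.061), and that of Igfals without FeSO4/PBS mouse 3 (edgeR FDR 0.051). None of the 7 was called after DEX in NaCl mice, or 1 without FeSO4/PBS mouse 1, NaCl/DEX mouse 1 or NaCl/PBS mouse 3. Igfbp3 was called higher there under DESeq2 (adjusted p = 0.032) and with DESeq2's size factors (edgeR FDR 0.049). Bcl6 was called lower there with no filter on low counts (edgeR FDR 0.00018).

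**Figure D5:**
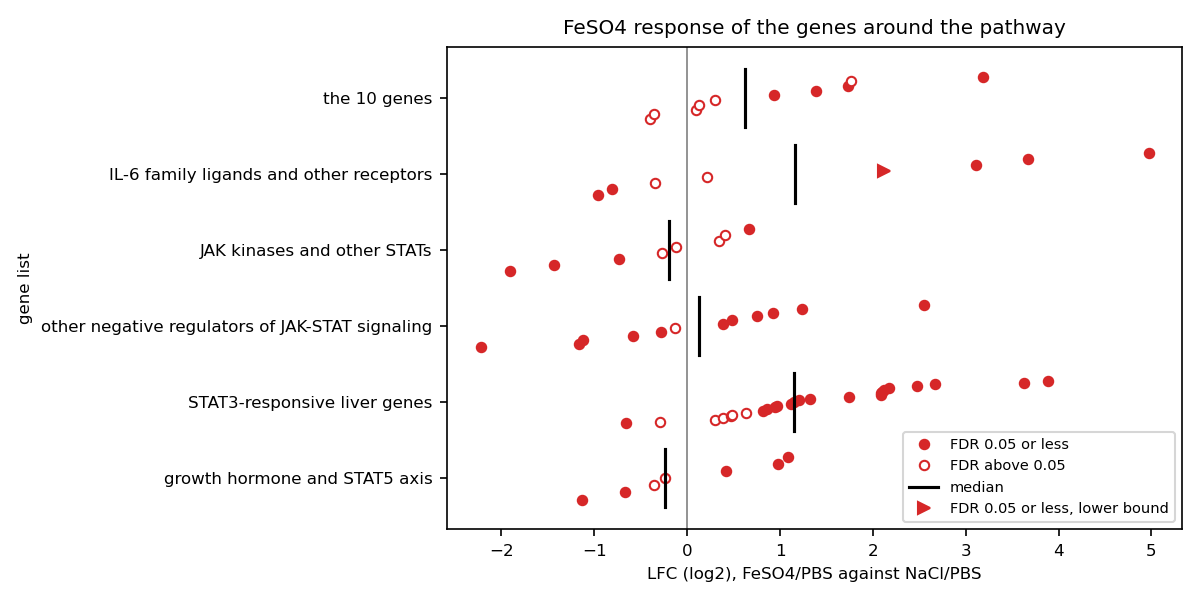
LFC of FeSO4/PBS against NaCl/PBS (horizontal axis, log2) of each tested gene of the 10 genes and of the 5 lists around them. Filled points have an edgeR FDR of 0.05 or less and black lines are medians. The triangle, named lower bound in the legend, is the FeSO4 mean of Osm against the floor, while the point of Lif rests on 2 reads in the NaCl/PBS mice. Of the STAT3-responsive genes 18 of 25 stood at the right and were called, or 14 without FeSO4/PBS mouse 1. Osm and Lif passed the filter through the FeSO4 libraries alone, and the median of their list includes them.

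Over the 12 libraries, the genes most like Socs3 in log2 CPM included Ung (Pearson's r = 0.994) and Id3 (0.991), out of 12759 genes compared. The genes most like Cish were AI463229 (0.943), Rhbdd1 (0.897) and Fgl1 (0.880). The 12 points share 4 groups, so that a gene with the same group means follows Socs3 closely, and these values describe likeness alone.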

How the data were processed

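RNA from the livers of 12 mice (4 groups of 3, each labelled a biological replicate) was made into stranded mRNA libraries and sequenced. Per the labels and the methods, the authors checked reads with FastQC, mapped them with STAR 2.7.10b to mm39 and took its gene counts, so the deposited values are raw read counts per gene, not normalized; which strand was counted is not given in the sources used here, and the authors used DESeq2 for their own comparisons. Symbols and positions came from the GENCODE annotation of GRCm39, which may be another release than the authors'. It named 54749 rows, and 665 stayed unnamed.

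Genes were kept by edgeR's expression filter (13857 genes), scaled by TMM and fitted with edgeR 4.0.16 (R 4.3.3) as 4 group means with the quasi-likelihood test (biological coefficient of variation 0.169). Contrasts were adjusted by Benjamini-Hochberg over all genes tested. Intervals are 95% and two-sided, and LFCs use a prior count of 0.125. Library totals had a median of 19602514 reads. A ligand's floor is 3 reads per library and covers counting error only, on the side of the group with no reads. The members and lists were chosen with earlier results of these data known. Named genes are all 10, every IL-6 family ligand, up to 3 genes called higher and up to 3 lower with the largest LFC of each list, and the 3 genes most correlated with Socs3 and with Cish, the highest and lowest of the 10 in LFC after FeSO4. Some genes that this rule takes are not reported here. Alternatives were DESeq2 1.42.0 and its size factors, library size alone, no filter and at least 10 counts in every library, a replicate block, fits of the compared libraries alone, an LFC beyond 1 in size, and each mouse left out.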

Additional observations from a re-analysis of the deposited data

Results flagged for a closer look

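Each value here is the LFC of DEX in FeSO4 mice minus that in NaCl mice, and the difference itself was tested with edgeR's quasi-likelihood test as an interaction. Of the 10 genes it was called for Socs3, at 2.82 (edgeR FDR 0.025, SE 0.68), and for Il6ra, at -1.10 (edgeR FDR 0.0022, SE 0.18). NaCl/PBS mouse 2 bears on the size for Socs3, which was 1.72 without it.

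In the lists around them, Lepr (DEX LFC 1.28 in NaCl and -0.77 in FeSO4 mice) had a difference of -2.05 (edgeR FDR 0.018, SE 0.47), and Lcn2 (DEX LFC 1.99 in NaCl and -0.85 in FeSO4 mice) one of -2.84 (edgeR FDR 0.023, SE 0.67). The call of Lepr was just lost without NaCl/PBS mouse 1 (edgeR FDR 0.05 after rounding, but above the threshold). That of Lcn2 did not hold without FeSO4/DEX mouse 3 (edgeR FDR 0.063), NaCl/DEX mouse 1 (0.056) or NaCl/PBS mouse 1 (0.065) or 3 (0.054).

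A further 6 genes of the lists are named because of this difference, after their values were seen. Junb and Pim1, an AP-1 component and a kinase gene that STAT3 induces, had DEX LFCs of -3.31 in NaCl and -0.17 in FeSO4 mice and of -2.16 in NaCl and -0.08 in FeSO4 mice, with differences of 3.13 (edgeR FDR 0.0015, SE 0.48) and 2.08 (edgeR FDR 0.032, SE 0.53). Stat5a (-0.94 in NaCl and 0.44 in FeSO4 mice) and Stat2 (-0.77 in NaCl and 0.25 in FeSO4 mice) had differences of 1.38 (edgeR FDR 0.0086, SE 0.27) and 1.02 (edgeR FDR 0.0082, SE 0.20). Cebpb, a transcription factor gene of the acute phase (1.29 in NaCl and 0.19 in FeSO4 mice), and Il1rn, which encodes the interleukin-1 receptor antagonist (1.26 in NaCl and -0.97 in FeSO4 mice), had differences of -1.10 (edgeR FDR 0.011, SE 0.23) and -2.23 (edgeR FDR 0.011, SE 0.46). The difference of Pim1 was 1.40 without FeSO4/DEX mouse 2 (edgeR FDR 0.052), and its call did not hold in 6 more of the 12 fits with a mouse left out, namely FeSO4/PBS mouse 3, NaCl/DEX mice 1, 2 and 3 and NaCl/PBS mice 1 and 2 (edgeR FDR 0.054 to 0.083). After DEX in NaCl mice the calls of Lcn2 and Il1rn did not hold without NaCl/PBS mouse 1 (edgeR FDR 0.068 and 0.077) or 3 (0.064 and 0.083), nor that of Il1rn without NaCl/DEX mouse 1 (0.054) or 3 (0.077). In FeSO4 mice none of the genes named here was called after DEX. With no filter on low counts Lepr (LFC -0.78, edgeR FDR 2.4e-05), Lcn2 (LFC -0.86, edgeR FDR 3.1e-06) and Il1rn (LFC -0.97, edgeR FDR 4.1e-05) were called lower. These LFCs were nearly those with the filter, so that the calls reflect another estimate of the spread and not a larger change. Saa2, whose rise after FeSO4 rested on 1 mouse, was then called lower too (LFC -1.36, edgeR FDR 6.7e-17).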

How the results depend on the processing

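Leaving out 1 mouse ended several calls. With 1 mouse left out, the number of the 10 genes called ran from 3 to 6 for FeSO4 with PBS, from 2 to 3 for DEX in NaCl mice, from 0 to 0 for DEX in FeSO4 mice, from 4 to 7 for FeSO4 with DEX and from 1 to 2 for the interaction. With no filter on low counts 7 genes were called in place of 4 for FeSO4 with PBS and 1 in place of 0 for DEX in FeSO4 mice, and with an LFC beyond 1 in size 3 in place of 6 for FeSO4 with DEX. Calls gained with no filter came at nearly the same LFCs, through another estimate of the spread, and show no larger change. For FeSO4 with DEX that setting gave Cish an edgeR FDR of 2e-14, though its highest FeSO4/DEX mouse was 5.07 times its lowest. Same-numbered mice of different groups hardly deviated together (correlations of -0.092 to 0.129 over 18 pairs, 2 of them over 0.1, and -0.151 to 0.111 for other pairs). The same-numbered NaCl/DEX and NaCl/PBS mice had positive values (0.129, 0.109 and 0.052). The mice were taken as unpaired, although with 3 mice per group these values cannot exclude a pairing. The fit with the replicate block called 4, 3, 0, 6 and 2 of the 10 genes in the 5 comparisons and 7268, 1754, 0, 5692 and 729 of all genes, and it changed no call of the 10. No LFC that was called turned its sign. The causes were not tested.

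Over all genes, an LFC beyond 1 in size left 3770 in place of 7553, 884 in place of 1892 and 2836 in place of 6005 calls in the FeSO4 with PBS, DEX in NaCl and FeSO4 with DEX comparisons. DEX in NaCl mice called 1187 genes without NaCl/PBS mouse 1 and 1192 without mouse 3. DEX in FeSO4 mice called 170 genes with no filter, 10 with DESeq2 and 1 without FeSO4/DEX mouse 1, in place of 0. The interaction called 1459 with no filter, 1309 with DESeq2, 537 without NaCl/PBS mouse 1 and 545 without mouse 3, in place of 857. Socs1 had 1 to 53 reads in a library, and its intervals were wide.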
